A study of Homo sapiens with 6 samples.

Results

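The proteasome genes were taken as all rows whose symbol is PSM followed by a letter from A to G and a number, without PSMB8, PSMB9 and PSMB10, which gave 44 of the 16250 genes listed. They comprised 15 genes of the core particle (PSMA and PSMB) and 20 of the regulatory particle with the chaperones of its base (PSMC and PSMD). The other 9 were for activators, an inhibitor and core assembly chaperones (PSME, PSMF and PSMG). All RNA came from HK-2, an immortalized line of human proximal tubular epithelial cells, in which NK-1R, the receptor of the neuropeptide substance P (SP), was overexpressed from a lentivirus with puromycin selection. The SP group had 20 μM SP for 48 h and the control group PBS for the same time, with 3 libraries in each group and the overexpressed receptor in both. Neither the labels nor the methods say that the libraries came from separate cultures, so p-values measure the spread between libraries, which may be technical.

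The proteasome is the large protease of the cytosol and nucleus that degrades proteins marked with ubiquitin. Its core particle is a barrel in which rings of alpha subunits cap rings of beta subunits, and the beta subunits PSMB5, PSMB6 and PSMB7 carry the protease sites. The regulatory particle binds, unfolds and feeds substrates into the barrel, while the alternative activators open it without the need for ubiquitin. PSME1 and PSME2 form one such activator, which interferon gamma induces together with PSMB8, PSMB9 and PSMB10, the catalytic subunits of the immunoproteasome.

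With SP, 6 proteasome genes fell and 0 rose among the 43 that could be tested. The 6 were PSME1 and PSME2, the core assembly chaperone PSMG4, the alpha subunits PSMA4 and PSMA2, and PSMD10, an assembly chaperone of the regulatory particle. Relative to the control mean, PSMD10 fell by 16.8%, the least of the 6, and PSMG4 fell by 24.1%, the most, and no member changed 2-fold. In the lid of the regulatory particle 0 of the 8 genes named PSM passed, with log2 fold changes from −0.14 to 0.08. SEM1, a lid subunit outside the naming rule, lay below all controls at −0.29 and did not pass either (limma adjusted p = 0.0594). A call here is an adjusted p under 0.05 in limma (Benjamini-Hochberg over the 12127 genes tested), on log2(FPKM + 1). With all libraries, the 6 calls were 14.0% of the members, beside 12.0% of all genes tested that fell, and among the 4069 genes with a mean FPKM of at least 20 the share that fell was 18.5%, against 6 of 41 members (14.6%). Of all genes tested, 8.57% rose, against 0 members. The count of members that fell rested on single libraries, since it was 1 without SP 2 (PSMG4, 2.33% of the members, against 3.54% of all genes), 3 without control 2 (6.98%, against 4.99%) and 12 without control 3 (27.9%, against 11.7%). For a change of at least 2-fold with the same adjusted p the share was 1.59% of all genes, against 0 members.

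FPKM divides the fragments of a gene by its length and by the size of its library, so it is a level relative to the rest of that library, and read depth is unknown. The FPKM values summed to 760889, 716334 and 672807 in control 1, 2 and 3 and to between 681075 and 688406 in the SP libraries, so control 1 stood high on this scale. The first principal component of all genes (64.75% of the variance) separated the groups, with SP 1 at 12.71 nearer to the controls than SP 2 at 20.75 and SP 3 at 21.33. TACR1, the gene of NK-1R, was between 15.74 and 32.98 FPKM in the control libraries and between 78.47 and 140.69 with SP. Among markers of the proximal tubule, 2 of 8 (AQP1 and GGT1) were high enough to test, CUBN, SLC34A1, SLC5A2 and ANPEP were too low, and LRP2 and SLC22A6 are not among the genes listed. Of 8 kidney epithelial markers, 7 were high enough. The summed markers ranged from 1188 to 1244 FPKM in control and from 1225 to 1250 with SP for kidney epithelium. For fibroblasts the sums ranged from 23.48 to 29.93 and from 15.73 to 18.08. There 5 of 7 markers were too low to test, and LUM (12.56 to 24.78 FPKM over all libraries) made up most of the sum. For leukocytes the sums ranged from 112.6 to 117.2 and from 108.2 to 114.8. Nearly all of that was CD68 (105.97 to 114.17 FPKM over all libraries), with CD14 between 1.45 and 4.09 FPKM. PTPRC was at 0 in all but SP 3, with 0.01, and CD3E and MS4A1 are not among the genes listed. The part of these markers in the results was not tested. In bulk RNA, fewer cells of a type and less RNA per cell cannot be told apart.

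The promoter windows of the 4 genes that were called in the largest number of alternative analyses, PSME1, PSME2, PSMG4 and PSMA4, show which letters these genes have in common near their start. The windows run from 250 bases before to 50 bases after a start site, 5′ to 3′ in the direction of the gene, from RefSeq on GRCh38.p14. They lie at chr14:24135944-24136243 on the plus strand (PSME1), chr14:24146561-24146860 on the minus strand (PSME2), chr6:3258697-3258996 on the plus strand (PSMG4) and, for PSMA4 on the plus strand, at chr15:78540155-78540454 and chr15:78540536-78540835 (the first and last of its 3 windows, the middle one holding no match). Capitals mark matches to TGACNNNGC, the element of the NFE2L1 and NFE2L2 family, to CCGGAAG, an ETS element, to CCAAT, the box of NF-Y, or to GAAANNGAA, the core of the interferon-stimulated response element, on either strand.
PSME1: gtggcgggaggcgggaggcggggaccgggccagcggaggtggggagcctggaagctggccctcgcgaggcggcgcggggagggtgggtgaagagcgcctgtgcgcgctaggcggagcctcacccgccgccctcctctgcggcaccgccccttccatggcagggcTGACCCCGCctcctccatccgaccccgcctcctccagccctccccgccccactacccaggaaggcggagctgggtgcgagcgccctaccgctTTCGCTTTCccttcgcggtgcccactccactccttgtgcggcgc
PSME2: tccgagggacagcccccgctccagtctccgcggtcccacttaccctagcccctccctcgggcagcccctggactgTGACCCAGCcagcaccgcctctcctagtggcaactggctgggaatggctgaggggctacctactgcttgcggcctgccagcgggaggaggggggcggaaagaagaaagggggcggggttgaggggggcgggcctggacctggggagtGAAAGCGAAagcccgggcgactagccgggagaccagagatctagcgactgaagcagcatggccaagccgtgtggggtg
PSMG4: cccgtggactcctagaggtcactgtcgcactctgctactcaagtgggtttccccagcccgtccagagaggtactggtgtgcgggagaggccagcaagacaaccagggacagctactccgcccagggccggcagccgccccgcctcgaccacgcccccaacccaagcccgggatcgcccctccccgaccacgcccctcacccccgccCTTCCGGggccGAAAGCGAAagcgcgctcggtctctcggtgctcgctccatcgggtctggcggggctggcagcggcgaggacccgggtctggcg
PSMA4 first window: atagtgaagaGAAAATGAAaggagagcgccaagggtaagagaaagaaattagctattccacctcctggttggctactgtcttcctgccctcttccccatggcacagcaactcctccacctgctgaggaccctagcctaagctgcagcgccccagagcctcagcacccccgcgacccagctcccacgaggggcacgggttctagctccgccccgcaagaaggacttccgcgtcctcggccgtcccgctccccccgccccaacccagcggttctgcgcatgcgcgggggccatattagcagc
PSMA4 last window: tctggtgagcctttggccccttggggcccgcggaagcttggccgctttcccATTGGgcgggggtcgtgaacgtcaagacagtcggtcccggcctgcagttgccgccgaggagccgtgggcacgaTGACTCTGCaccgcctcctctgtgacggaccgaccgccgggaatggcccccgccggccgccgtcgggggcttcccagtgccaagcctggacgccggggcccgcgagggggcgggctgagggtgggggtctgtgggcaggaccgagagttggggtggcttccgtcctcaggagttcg

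Counted from 1 at the 5′ end, TGACNNNGC started at 165 in the PSME1 window, at 76 in that of PSME2 and at 125 in the last window of PSMA4, which also held CCAAT at 52 (minus strand). GAAANNGAA, a motif chosen after the values were seen, started at 257 (PSME1, minus strand), 223 (PSME2), 218 (PSMG4) and 11 (first window of PSMA4), and CCGGAAG at 207 (PSMG4, minus strand). Of the 44 members, 38 had a window, and PSMA7, PSMB1, PSMB6, PSMB7, PSMD4 and PSMG3 had none. The motif GAAANNGAA was in the windows of 6 of the 38 (15.8%), against 9.86% of all 27305 genes with a window. The other holders were PSMB4 and PSMC2, which did not pass the test. TGACNNNGC was in 14 members (36.8%, against 16.1% of the 27305 genes), CCGGAAG in 15 (39.5%, against 12.2%) and CCAAT in 18 (47.4%, against 39.7%). This background was not limited to the 12127 genes tested, nor matched for level. Among the 6 members that fell, 3 held TGACNNNGC, 3 CCAAT, 1 CCGGAAG and 4 GAAANNGAA. These matches are letters in a window, without a test, and say nothing of binding in these cells.

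In GENCODE 29 (GRCh38), coding genes overlap 14 of the 44 members on the opposite strand and 4 on the same strand. Pseudogenes are named after 12 members, 32 in all with 13 for PSMC1. Some reads of these members could therefore belong to the other locus. The transcripts of the core particle were the most abundant, with a median of the mean levels of 287.8 FPKM, against 79.69 FPKM for the regulatory particle and 10.88 FPKM for all genes tested. PSMB4, a beta subunit without a protease site, had the highest mean of the core (511.7 FPKM over the 6 libraries), and the alpha subunit PSMA5 the lowest (32.17 FPKM). In the regulatory particle the lid subunit PSMD8 was highest (227.0 FPKM), and PSMD9, a chaperone of its base, lowest (22.4 FPKM). PSME4, which encodes the large single-chain activator, had 6.438 FPKM, the lowest mean of the tested members. PSMA8, the alpha subunit of the testis, was listed at 0.04 FPKM in control 2 and at 0 in the other 5 libraries and was not tested.

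**Figure D1:**
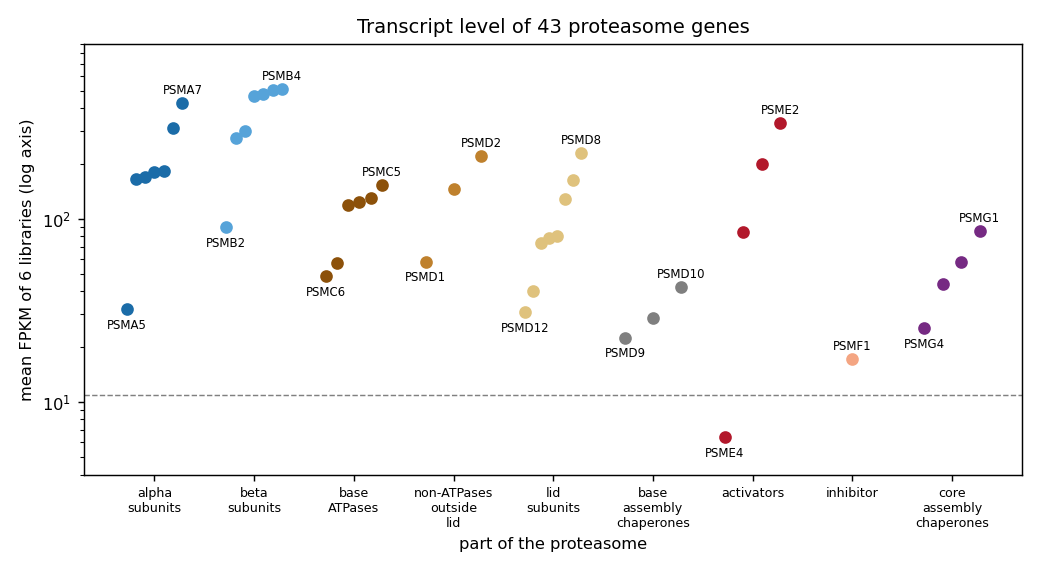
Mean FPKM over the 6 libraries (log axis) of each of the 43 tested proteasome genes, 1 point a gene, by part of the proteasome, with the highest and the lowest gene of each part named. The dashed line is the median of all genes tested, 10.88 FPKM, and only PSME4, at 6.438 FPKM, lies below it.

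The members' levels summed to 7593, 7298 and 6861 FPKM in the control libraries and to 6664, 6460 and 6636 FPKM with SP. The sums did not overlap between the groups, with means of 7251 ± 368.2 and 6587 ± 110.5 (SD, n = 3). Expressed as a share of each library's total FPKM, they were 0.998%, 1.02% and 1.02% in control and 0.971%, 0.949% and 0.964% with SP, also without overlap. The part of the sum from the core particle was 4324 ± 281.9 FPKM in control and 3868 ± 79.55 FPKM with SP (SD, n = 3), and that of the regulatory particle was 1987 ± 38.43 and 1950 ± 19.53 FPKM. For the activators, the inhibitor and the core assembly chaperones the sums were 938.8 ± 50.19 and 768.5 ± 32.54 FPKM. Most of these sums came from PSME1 (means of 225.1 and 171.5 FPKM) and PSME2 (379.0 and 291.0 FPKM). Of the 9 genes, 2 (PSME4 and PSMG3) had positive log2 fold changes. In shares of the total, the core took between 0.600% and 0.606% in control and between 0.555% and 0.570% with SP, without overlap. The regulatory particle took between 0.265% and 0.289% in control and between 0.284% and 0.286% with SP, which overlapped, and the activators, inhibitor and chaperones took between 0.129% and 0.132% and between 0.109% and 0.117%, which did not.

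Across the 43 members, 31 log2 fold changes were negative and 12 positive, from −0.40 to 0.21, with a median of −0.13 against −0.05 for all genes tested. Of the 12127 genes tested, 7120 were negative and 5007 positive. The standard errors of the members were between 0.057 and 0.098. At an unadjusted p under 0.05, 20 of the 43 members were lower and 1, PSMD2, was higher, against 22.3% and 14.3% of all genes tested. Every SP library was below every control library in 22 members (51.2%), against 26.1% of all genes tested, and above in 4 members, against 15.9% of all genes. Control 1 was the highest of the 6 libraries in 26 members (60.5%), against 24.6% of all genes. When every library was scaled to the same FPKM total, 16 members (37.2%) lay below all controls, against 17.4% of all genes, and 5 (11.6%) lay above, against 18.6%. On that scale 4 members (9.3%) fell in limma (PSMA4, PSME1, PSME2 and PSMG4), against 6.06% of all genes. The median of the members was −0.07, and 25 of the 43 were negative. The same scaling turned the split of all calls from 41.6% higher (1039 higher, 1457 lower) to 58.2% higher (1050 higher, 754 lower). The backgrounds given here were not matched for level, and 41 of the 43 members had a mean FPKM of at least 20. Genes at that level were called lower more often (18.5%) than all genes tested (12.0%).

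**Figure D2:**
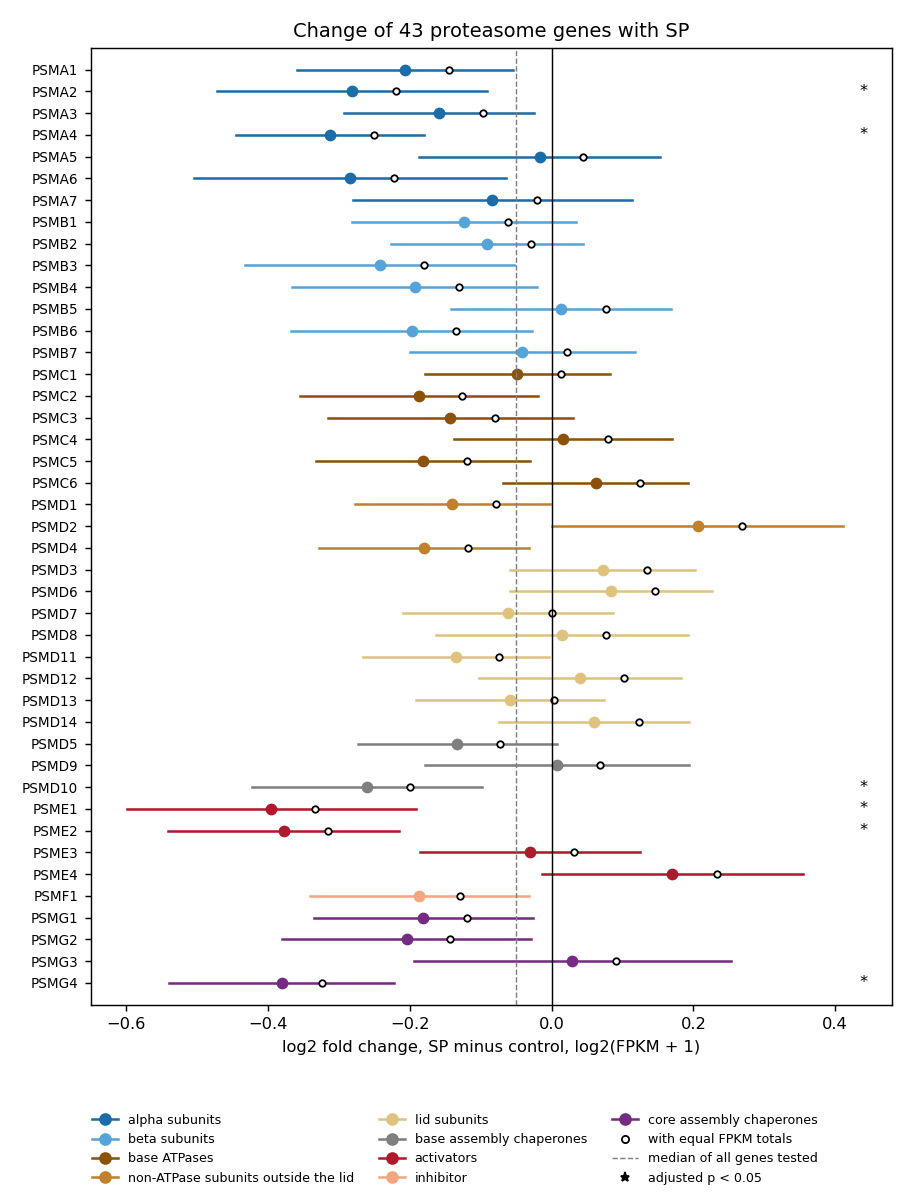
Log2 fold change with SP on log2(FPKM + 1) for each of the 43 proteasome genes, grouped by part (filled points, with 95% confidence intervals from limma as lines), and the same value after scaling every library to the same FPKM total (open points). Stars mark the 6 genes with an adjusted p under 0.05, all left of 0, and the dashed line is the median of all genes, −0.05.

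**Figure D3:**
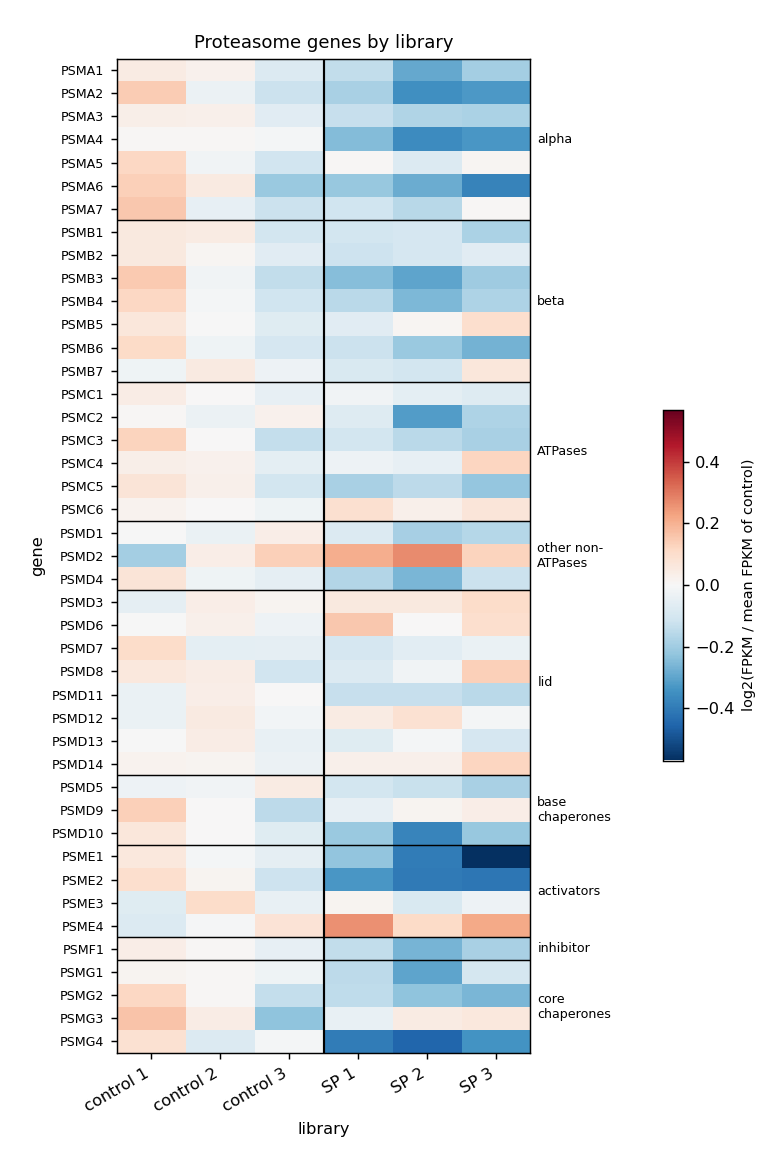
FPKM of each proteasome gene in each library as log2 of its ratio to the mean of the 3 control libraries, with red above and blue below that mean. The alpha subunits, PSME1, PSME2 and PSMG4 are mostly blue in the 3 SP libraries, and the lid genes named PSM are pale. Control 1 is the reddest control library, being the highest control in 31 of the 43 genes.

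In the core particle, 2 of 14 tested genes fell, both of them alpha subunits, and 0 rose. The share that fell was 14.3%, against 12.0% of all genes tested and 18.5% of those with a mean FPKM of at least 20. The count of core genes that fell was 6 without control 3, 0 without SP 2, and 1 without control 1, control 2 or SP 3. The alpha subunits form the outer rings and the gate of the barrel. Their 7 tested log2 fold changes were all negative, with a median of −0.21, and 7120 of the 12127 genes tested were also negative. With equal FPKM totals the value of PSMA5 was positive (0.04). PSMA4 was at 200.8, 200.7 and 198.4 FPKM in control and at 168.3, 155.8 and 158.7 FPKM with SP. The control libraries were nearly equal and all 3 SP libraries were below them, a difference of −0.31 ± 0.058 (SE) on the log2 scale (limma adjusted p = 0.00901, n = 3 in each group). PSMA2 was at 200.2, 177.2 and 166.2 FPKM in control and at 159.4, 142.3 and 144.2 FPKM with SP. Control 1 was the highest and the groups were close to each other, at 166.2 and 159.4 FPKM, with a log2 fold change of −0.28 ± 0.083 (SE) and an adjusted p of 0.0456 in limma. This call was the weaker of the pair, since PSMA2 passed in 6 of 14 alternatives (adjusted p between 0.0193 and 0.162) and PSMA4 in 13 of 14 (between 0.00938 and 0.0557, lost without SP 2). The call of PSMA2 was lost without control 1, control 2, SP 2 or SP 3. PSMA4 lies at chr15:78540405-78552419 on the plus strand and PSMA2 at chr7:42916857-42932223 on the minus strand (GENCODE 29, GRCh38). PSMA2 also has 3 pseudogenes named after it and overlaps the coding genes AC010132.3 on its own strand and MRPL32 on the other. Neither the labels nor the methods say whether counting used strand.

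The other alpha subunits did not pass. PSMA6 had a log2 fold change of −0.28 (limma adjusted p = 0.0692), and it passed when the replicate number was a block (adjusted p = 0.0240). It also passed with quantile normalization, without control 3, and with the block and equal FPKM totals. PSMA1 (−0.21, adjusted p = 0.0588) and PSMA3 (−0.16, adjusted p = 0.0882) lay below all control libraries, and PSMA7 (−0.08, adjusted p = 0.515) did not. PSMA5 was at 35.19, 31.91 and 30.08 FPKM in control and at 32.53, 30.65 and 32.68 FPKM with SP. Its groups overlapped, with a log2 fold change of −0.02 and a 95% confidence interval from −0.19 to 0.15.

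Of the 7 beta subunits, 0 passed, with a median log2 fold change of −0.12 and 3 lower at an unadjusted p under 0.05, against 22.3% of all genes tested. The protease sites are those of PSMB5 (chymotrypsin-like), PSMB6 (caspase-like) and PSMB7 (trypsin-like). PSMB5 was at 286.2, 273.7 and 261.3 FPKM in control and at 261.4, 275.6 and 292.1 FPKM with SP. These values overlapped throughout, with a log2 fold change of 0.01 and a 95% confidence interval from −0.14 to 0.17 (limma adjusted p = 0.905). PSMB7 was at 501.7, 528.5 and 499.6 FPKM in control and at 480.1, 474.9 and 532.9 FPKM with SP. Its highest library was SP 3 and its interval ran from −0.20 to 0.12 (limma adjusted p = 0.698). PSMB6 was at 347.0, 316.0 and 301.1 FPKM in control and at 295.5, 277.4 and 266.6 FPKM with SP. Here all SP libraries lay below the controls, but the log2 fold change of −0.20 did not pass after adjustment (limma adjusted p = 0.0938, interval from −0.37 to −0.03).

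PSMB4 was at 592.4, 541.5 and 505.4 FPKM in control and at 490.6, 457.2 and 483.1 FPKM with SP. The groups did not overlap, and the log2 fold change of −0.19 had an adjusted p of 0.104 in limma. PSMB3, a beta subunit without a protease site, had the most negative value among the beta subunits (−0.24, adjusted p = 0.0707). PSMB1 (−0.12) and PSMB2 (−0.09), also without protease sites, had adjusted p-values of 0.229 and 0.294.

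The 20 genes of the regulatory particle include the 3 chaperones of its base. Of these 20, 1 fell (5.0%, against 12.0% of all genes tested) and 0 rose. Their median log2 fold change was −0.05, the same as for all genes tested to 2 decimals. The gene that fell was PSMD10, a chaperone and not a subunit of the finished particle. The count was 2 without control 3 and 0 when any other library was left out. The ATPases PSMC1 to PSMC6 form the ring that unfolds substrates, and 0 of 6 passed, with values from −0.19 (PSMC2, limma adjusted p = 0.104) to 0.06 (PSMC6, adjusted p = 0.465). PSMC5 lay below all controls at −0.18 (adjusted p = 0.0847), whereas the ATPases PSMC1, PSMC3 and PSMC4 overlapped with control. The 8 lid genes named PSM include PSMD14, the deubiquitinase that removes ubiquitin chains from substrates. Of these 8, without SEM1, 0 passed, 5 values were positive and the median was 0.03. PSMD14 was at 0.06 with an interval from −0.07 to 0.19. PSMD11 (−0.14, adjusted p = 0.128) lay below all controls, and PSMD3 (0.07) and PSMD14 lay above them. The other lid genes, PSMD6, PSMD7, PSMD12 and PSMD13, lay between −0.06 and 0.08 and overlapped with control. PSMD8 was at 235.0, 232.8 and 209.4 FPKM in control and at 214.1, 222.8 and 247.7 FPKM with SP. Control 3 was its lowest library and SP 3 its highest, and the interval of its log2 fold change ran from −0.16 to 0.19.

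The ubiquitin receptor PSMD4 and the large scaffolds PSMD1 and PSMD2 did not pass either. PSMD2 was at 180.0, 211.0 and 225.8 FPKM in control and at 237.2, 248.0 and 224.2 FPKM with SP. Its value in SP 3 was just below that of control 3, and its log2 fold change was the most positive of all members (0.21, limma adjusted p = 0.136). PSMD1 (−0.14, adjusted p = 0.131) and PSMD4 (−0.18, adjusted p = 0.0836) lay below all controls.

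The chaperones PSMD5, PSMD9 and PSMD10 help to build the base of the regulatory particle and are not in the finished particle. PSMD10, also called gankyrin, was at 48.53, 46.57 and 44.3 FPKM in control and at 40.17, 35.78 and 40.01 FPKM with SP. All SP libraries were below the controls, with SP 2 the lowest, and the log2 fold change was −0.26 ± 0.071 (SE, limma adjusted p = 0.0359, n = 3 in each group). It passed in 5 of 14 alternatives, with adjusted p-values between 0.0351 and 0.147, and the call held without control 3 and was lost when any other library was left out. The gene lies at chrX:108084207-108091618 on the minus strand (GENCODE 29, GRCh38), and 3 pseudogenes are named after it. PSMD9 was at 24.55, 22.38 and 20.17 FPKM in control and at 21.68, 22.62 and 22.99 FPKM with SP. The SP values lay within the control range, with an interval from −0.18 to 0.19. PSMD5 (−0.13, adjusted p = 0.154) lay below all controls.

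Among the activators, both genes of the interferon-inducible one fell and PSME3 and PSME4 did not pass the test. PSME1 was at 234.6, 223.5 and 217.1 FPKM in control and at 192.5, 170.5 and 151.6 FPKM with SP. The lowest control was above the highest SP library, with means of 225.1 ± 8.866 and 171.5 ± 20.47 (SD, n = 3) and a log2 fold change of −0.40 ± 0.089 (SE, limma adjusted p = 0.0185). Its partner PSME2 was at 404.7, 383.1 and 349.4 FPKM in control and at 301.4, 286.4 and 285.1 FPKM with SP. These groups were also apart, with means of 379.0 ± 27.88 and 291.0 ± 9.06 (SD, n = 3) and a log2 fold change of −0.38 ± 0.072 (SE, limma adjusted p = 0.00955). PSME1 was called in 12 of 14 alternatives (adjusted p between 0.00886 and 0.0702, lost without control 2 or without SP 2) and PSME2 in 13 (between 0.00421 and 0.0516, lost without SP 2). Of the 9 activator, inhibitor and core chaperone genes together, 3 fell (33.3%, against 12.0% of all genes tested). When SP 2 was left out, 1 of them fell, against 3.54% of all genes.

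PSME1 and PSME2 lie on chromosome 14, at chr14:24136158-24138967 on the plus strand and chr14:24143362-24147570 on the minus strand (GENCODE 29, GRCh38), with 4394 bases between them. PSME1 overlaps EMC9 and PSME2 overlaps RNF31 on the other strand, and 2 pseudogenes are named after PSME2. The ratio of PSME1 to PSME2 within a library was 0.580, 0.584 and 0.621 in control and 0.639, 0.595 and 0.532 with SP, so it overlapped between the groups (two-sided exact permutation p = 1.0).

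PSME3, the nuclear relative of this pair, was at 81.87, 92.25 and 83.16 FPKM in control and at 86.69, 80.73 and 84.11 FPKM with SP. Its groups overlapped, with a log2 fold change of −0.03 and an interval from −0.19 to 0.12 (limma adjusted p = 0.772). The ratio of PSME1 to PSME3 was 2.63 ± 0.222 in control and 2.05 ± 0.217 with SP, and that of PSME2 to PSME3 was 4.43 ± 0.443 and 3.47 ± 0.0789 (SD, n = 3). Both ratios were lower in every SP library than in every control library (two-sided exact permutation p = 0.1, the smallest that 3 against 3 allows). PSME4 was at 5.68, 5.98 and 6.34 FPKM in control and at 7.19, 6.48 and 6.96 FPKM with SP. It lay above all controls but did not pass, with a log2 fold change of 0.17 and an interval from −0.01 to 0.35 (limma adjusted p = 0.163).

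PSMF1, an inhibitor that binds the core, was at 18.79, 18.38 and 17.75 FPKM in control and at 16.59, 15.22 and 16.1 FPKM with SP. The groups were apart, and the log2 fold change of −0.19 had an adjusted p of 0.0837 in limma.

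The chaperones PSMG1 to PSMG4 pair up to assemble the alpha ring, PSMG1 with PSMG2 and PSMG3 with PSMG4. PSMG4 was at 30.38, 27.11 and 28.38 FPKM in control and at 21.69, 20.92 and 22.6 FPKM with SP. Every SP library was below every control, with a log2 fold change of −0.38 ± 0.070 (SE, limma adjusted p = 0.00834, n = 3 in each group), and it was the member that passed in all 14 alternatives (adjusted p between 0.0086 and 0.0482). The annotated gene, at chr6:3231403-3303373 on the plus strand (GENCODE 29, GRCh38), overlaps TUBB2B and SLC22A23 on the other strand. Its partner PSMG3 was at 48.46, 44.69 and 36.93 FPKM in control and at 42.05, 44.72 and 45.27 FPKM with SP. These values overlapped, with a log2 fold change of 0.03 and an interval from −0.19 to 0.25. The ratio of PSMG4 to PSMG3 was 0.667 ± 0.088 in control and 0.494 ± 0.024 with SP (SD, n = 3, two-sided exact permutation p = 0.1).

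PSMG1 was at 91.72, 91.16 and 89.1 FPKM in control and at 81.84, 73.59 and 84.49 FPKM with SP. PSMG2 was at 67.32, 62.28 and 56.42 FPKM in control and at 56.04, 52.85 and 51.79 FPKM with SP. Both lay below all controls without passing, with log2 fold changes of −0.18 and −0.20 and adjusted p-values of 0.0917 and 0.0935 in limma.

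The 3 catalytic subunits of the immunoproteasome all fell, against 12.0% of all genes tested. In cells that receive interferon, PSMB8 replaces PSMB5, PSMB9 replaces PSMB6 and PSMB10 replaces PSMB7. PSMB8 went from 62.18 ± 3.472 to 43.42 ± 0.8807 FPKM (adjusted p = 0.00207), PSMB9 from 38.3 ± 1.58 to 22.0 ± 0.6153 FPKM (adjusted p = 0.000368) and PSMB10 from 89.85 ± 11.61 to 59.06 ± 2.82 FPKM (adjusted p = 0.00564; mean ± SD, n = 3, limma). The ratio of PSMB8 to PSMB5 was 0.224, 0.235 and 0.223 in control and 0.169, 0.159 and 0.145 with SP, and those of PSMB9 to PSMB6 (0.114 to 0.122 in control, 0.0745 to 0.0848 with SP) and of PSMB10 to PSMB7 (0.154 to 0.197 in control, 0.107 to 0.130 with SP) were likewise apart, each at the smallest exact permutation p of 0.1. In GENCODE 29, PSMB8 and PSMB9 overlap each other on opposite strands, PSMB9 also overlaps TAP1 on the opposite strand, and PSMB10 overlaps AC040162.1 on its own. Such ratios within a library do not depend on the library's FPKM total.

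Lists of genes around the proteasome were read from the same fit, in which 12.0% of all genes tested fell and 8.57% rose. Of the 8 regulators of proteasome gene expression, 4 rose and 0 fell, with a median log2 fold change of 0.28. They were the small Maf partners of the CNC factors, MAFF (1.17, limma adjusted p = 0.00156), MAFK (1.09, adjusted p = 0.000482) and MAFG (0.32, adjusted p = 0.0235), and NFE2L1, the factor that drives proteasome genes when the proteasome is inhibited (67.89 ± 4.568 to 85.38 ± 3.982 FPKM, SD, n = 3, log2 fold change 0.33, adjusted p = 0.0155). MAFF overlaps PLA2G6 and MAFK overlaps TMEM184A on the opposite strand, and MAFG overlaps SIRT7 on its own. MAFG and NFE2L1 were lost without control 2, SP 2 or SP 3, with adjusted p-values up to 0.082 and 0.0597. NFE2L2 (0.13), DDI2, the protease that activates NFE2L1 (0.24), NGLY1, its deglycosylase (−0.13), and BACH1 (0.18) did not pass.

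Of 6 subunits and assembly factors not named PSM, which were ADRM1, SEM1, UCHL5, POMP, PAAF1 and AKIRIN2, 0 passed. SEM1, a lid subunit, came closest (−0.29, limma adjusted p = 0.0594), and it passed with the replicate block (adjusted p = 0.0174). Of 8 proteins that bind the proteasome, 0 passed, and ZFAND2A had the smallest p (0.30, adjusted p = 0.102). Of 6 genes for ubiquitin and its activating enzymes, RPS27A, a fusion of ubiquitin with a ribosomal protein that has 17 named pseudogenes, fell (−0.29, adjusted p = 0.0454), and it passed in 5 of 14 alternatives and was lost without control 1, control 2, SP 2 or SP 3. UBB, a polyubiquitin gene, did not pass (0.07). Of 9 shuttle and segregase genes, 8 were tested and 1 rose, the shuttle UBQLN1 (0.27, adjusted p = 0.0229, passed in 10 of 14 alternatives and lost without control 2, SP 1, SP 2 or SP 3). VCP, the segregase that extracts ubiquitinated proteins, was at 0.01.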

How the data were processed

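Libraries were made from RNA of HK-2 cells with overexpressed NK-1R, 6 in all, and sequenced on DNBSEQ (paired-end). The authors used HISAT for mapping to GRCh38.p13, RSEM for quantification and DESeq2 for their own comparison; the submitters' notes also name HISAT2, Bowtie2 and hg38, without versions. The values the authors deposited are FPKM with 2 decimals, 1 per gene and library, which give no read counts, so the authors' count test could not be run. Genes that reached 0.5 FPKM in 3 or more libraries were tested as log2(FPKM + 1) in limma 3.58.1 (R 4.3.3) with a variance trend and Benjamini-Hochberg adjustment. A fold change on this scale understates the change of low genes. Ratios were tested by exact permutation (scipy 1.17.1).

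Members and lists were chosen with earlier results of these data known. Values per library are given for catalytic subunits, activators, the inhibitor, core assembly chaperones, called members and the highest and lowest member of each particle, and PSMD2 was added after its values were seen. Deviations of same-numbered libraries from their group means correlated with 0.165, 0.223 and 0.170 over 12127 genes. The main fit had no replicate block, so its p-values are unpaired. Same-numbered libraries were treated as pairs only in the alternatives with a block. The correlations were the sole basis for this, because no label explains the numbers. Alternatives were a pseudocount of 0.1, no filter, no trend, a replicate block, 3 scalings and leaving out each library, and, added after the data were seen, the block with equal totals, the counts of libraries without overlap on equal totals, the background at a mean FPKM of at least 20 and the motif GAAANNGAA.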

Additional observations from a re-analysis of the deposited data

How the results depend on the processing

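Over 14 alternatives, 0 members rose, and PSMG4 was called in each. With the replicate number as a block or with quantile normalization, 7 members fell, the 6 already called and PSMA6. In the lists around the proteasome, SEM1 was called as well with the block. The number of all genes called lower was 1457, and it was 754 with equal FPKM totals, 912 with median-ratio scaling and 845 with the block and equal totals, whereas the share of calls that were higher went from 41.6% to 58.2%, 58.5% and 60.0%. The number of core genes that fell, 2, was 1 with no filter, no trend, equal totals or median-ratio scaling, and that of regulatory genes, 1, was 0 with no trend, equal totals, median-ratio scaling or the block with equal totals. Leaving out 1 library gave 474 to 1117 genes higher and 426 to 1413 lower in all, 1 (without SP 2) to 12 (without control 3) members lower, 0 to 6 in the core, 0 to 2 in the regulatory particle and 1 to 4 among activators, inhibitor and assembly chaperones. The cause was not tested.

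Among the named genes, the direction reversed only in some that did not pass. With equal totals, alone or with the block, the log2 fold change was 0.02125 for PSMB7, 0.03137 for PSME3 and 0.04456 for PSMA5, and with median-ratio scaling 0.01106, 0.02119 and 0.03415. With quantile normalization it was 0.05713 for PSMB7 and 0.01939 for PSMA5. Leaving out 1 library gave −0.02716 to 0.05255 for PSMB5, −0.06292 to 0.02221 for PSME3, −0.07943 to 0.112 for PSMG3, −0.06721 to 0.04259 for PSMA5, −0.04565 to 0.05904 for PSMD8 and −0.06134 to 0.07431 for PSMD9. Read depth is unknown, so no limit from counting can be given.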
